A study of Mus musculus with 48 samples.

Results

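The 10 genes described here mark T cells or direct their development. They are the CD3 chains Cd3e, Cd3d and Cd3g, the coreceptors Cd4, Cd8a and Cd8b1, the interleukin 7 receptor chain Il7r, and the transcription factors Tcf7, Lef1 and Bcl11b. They were chosen by name, as every probe other than a control spot that carries 1 of these symbols in the array files. This gave 15 probes for 10 of the 34844 gene names on the array. All 10 genes were detected in blood, by 13 of the 15 probes, and 5 of them were detected in the brain. The choice used names and no threshold on a measured value. Bcl11b alone has a further history, because the study picked it by overlap of genes changed in patient blood with genes changed, on these same arrays, in OVX+CUMS mice and not in CUMS or OVX mice. Its differences of those 3 groups from control mice are therefore a description and not independent evidence. The same holds for its effects of stress, of surgery and of their interaction, which rest on the same group means. In RT-qPCR of patient blood, the study reported no state-dependent change of BCL11B and did not keep it as a candidate biomarker.

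Agilent expression arrays with 1 colour read RNA of whole blood and RNA of medial prefrontal cortex (mPFC) from 24 female C57BL/6J mice, 17 weeks of age, with 1 array per mouse and tissue. Control mice were sham-operated and not stressed, CUMS mice were sham-operated and exposed to chronic ultra-mild stress, OVX mice were bilaterally ovariectomized and not stressed, and OVX+CUMS mice were ovariectomized and then stressed, with 6 mice in each group. All groups, controls included, were operated on, and blood and brain were taken under pentobarbital anesthesia. Blood RNA came from the spun pellet of heparinized blood, in which no cell type was sorted, so fewer T cells and less RNA per T cell cannot be told apart. The signal of a probe is given as log2 of its processed intensity after subtraction of the 75th percentile of its array, also in log2, so that 0 is the level of that percentile.

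The arrays lay on 3 slides of 8 arrays in each tissue. Slide 1 held 6 control and 2 CUMS mice, slide 2 held 4 CUMS and 4 OVX mice, and slide 3 held 2 OVX and 6 OVX+CUMS mice. Control mice shared no slide with OVX or with OVX+CUMS mice, so in both comparisons slide and group cannot be told apart directly, and a slide block links these groups only by way of the CUMS and OVX mice that lay on more than 1 slide. The 75th percentile of the processed signal was 54.9 to 192 on blood arrays and 572 to 689 on mPFC arrays, with a blood mean of 110 ± 17.9 (SD, n = 6) in control, 86.3 ± 19.9 in CUMS, 144 ± 29.8 in OVX and 126 ± 14.3 in OVX+CUMS mice.

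T cells recognize antigen through a T cell receptor that signals by way of the CD3 chains, which are made together and are needed for the receptor to reach the cell surface. CD4 is the coreceptor of helper T cells, and cytotoxic T cells carry CD8, a dimer of the alpha chain (Cd8a) and the beta chain (Cd8b1). Il7r keeps naive T cells alive, Tcf7 and Lef1 are related factors of naive T cells, and Bcl11b commits precursors in the thymus to the T cell lineage, but it is also a gene of projection neurons in deep layers of the cortex.

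The promoters of the CD3 genes and of Bcl11b are shown because these genes did not all move together in blood, as described below. Each sequence is the 250 bases before the RefSeq transcription start (GRCm38.p6), read 5′ to 3′ on the strand of the gene, and the table held such an entry for 8 of the 10 genes. Capitals mark the letters of the 3 motifs searched on both strands, CTTTGA for TCF/LEF factors, AGGAAG for ETS factors and TGTGGT for RUNX factors, so that TCAAAG and CTTCCT are matches on the other strand.
Cd3d, chr9:44981536-44981785, plus strand: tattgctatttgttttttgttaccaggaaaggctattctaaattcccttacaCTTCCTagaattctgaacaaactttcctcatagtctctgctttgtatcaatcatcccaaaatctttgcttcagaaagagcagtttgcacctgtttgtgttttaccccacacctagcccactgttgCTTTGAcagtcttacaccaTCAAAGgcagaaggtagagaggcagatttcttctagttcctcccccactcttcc
Cd3g, chr9:44980432-44980681, minus strand: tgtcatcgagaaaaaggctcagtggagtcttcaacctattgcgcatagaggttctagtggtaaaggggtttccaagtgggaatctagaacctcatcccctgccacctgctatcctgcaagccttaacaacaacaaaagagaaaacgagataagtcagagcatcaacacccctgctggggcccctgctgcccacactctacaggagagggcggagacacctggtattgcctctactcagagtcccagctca
Cd3e, chr9:45009612-45009861, minus strand: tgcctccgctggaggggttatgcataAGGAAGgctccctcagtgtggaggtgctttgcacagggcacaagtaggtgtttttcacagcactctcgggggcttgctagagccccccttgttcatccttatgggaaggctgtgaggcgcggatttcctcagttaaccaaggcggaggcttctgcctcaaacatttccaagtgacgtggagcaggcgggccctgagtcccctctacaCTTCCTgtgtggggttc
Bcl11b, chr12:108003415-108003664, minus strand: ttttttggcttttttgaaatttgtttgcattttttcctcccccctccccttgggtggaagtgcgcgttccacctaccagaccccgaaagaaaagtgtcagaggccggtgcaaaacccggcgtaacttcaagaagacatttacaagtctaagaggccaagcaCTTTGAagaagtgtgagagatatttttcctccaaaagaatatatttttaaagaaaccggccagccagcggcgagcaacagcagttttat

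Cd3d and Cd3g lie head to head, with their starts 1355 bases apart, and the start of Cd3e lies 27825 bases from that of Cd3d. The Cd3d promoter held 2 matches to CTTTGA, beginning 73 and 54 bases before the start, and 1 match to AGGAAG at 198 bases. Cd3e held 2 matches to AGGAAG and none to CTTTGA, Bcl11b held 1 match to CTTTGA at 89 bases, and Cd3g held no match to any of the 3 motifs. CTTTGA was present in 13.8%, AGGAAG in 29.5% and TGTGGT in 14% of 32851 promoters of the same length. These matches describe letters, not binding sites.

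The probes were checked next, since a gene can be read only where its probe gives signal. The array files place them on the mm9 build, and each is given 5′ to 3′ as in those files. The first 3 are shown because they read Bcl11b, Cd3d and Cd8a (the dimmer of its 2 probes) in blood, and the last because it read Cd4 at background.
Bcl11b, chr12:109153847-109153906, minus strand: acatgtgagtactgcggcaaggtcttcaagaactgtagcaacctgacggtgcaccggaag
Cd3d, chr9:44794171-44794402, plus strand: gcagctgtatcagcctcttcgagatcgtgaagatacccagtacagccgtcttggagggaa
Cd8a, chr6:71323885-71323944, plus strand: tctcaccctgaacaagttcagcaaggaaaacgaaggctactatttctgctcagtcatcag
Cd4, chr6:124817706-124817765, minus strand: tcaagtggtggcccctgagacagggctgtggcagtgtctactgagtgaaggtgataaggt
The last 30 bases of the probes that read Cd3e (chr9:44806828-44806887, minus strand) and Cd4 (chr6:124814711-124814770, minus strand) are shown because both hold AATAAA (capitals), the letters of the polyadenylation signal.
Cd3e: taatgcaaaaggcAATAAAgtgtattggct
Cd4: acagaaaAATAAAggctataAATAAAatgc

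These were the only 2 of the 15 probes with AATAAA, which was present in 10.1% of all 55681 probes. They were also the only probes of the CD3 and coreceptor genes detected in mPFC. Cd3e read 2906 processed units in blood and 821 in mPFC (means of 24 mice), and Cd4 read 3376 in blood and 4012 in mPFC. The other Cd4 probe was well above background on 5 of 24 blood arrays, with a mean of 9.80 units, and did not pass detection in either tissue. In contrast, Cd3d read 1583 units in blood and 7.42 in mPFC, Cd3g 648 and 4.0, Cd8b1 1864 and 12.5, and Il7r 755 and 17.2, and none of these was detected in mPFC. The brain thus gave signal for 1 of the 3 CD3 chains, and the part of probe sequence in this was not tested. Tcf7 read 492 units in blood and 49.3 in mPFC, Lef1 2464 and 1048, and Bcl11b 213 and 3873, the last higher in mPFC than in blood for both of its probes, without scaling between tissues.

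**Figure D1:**
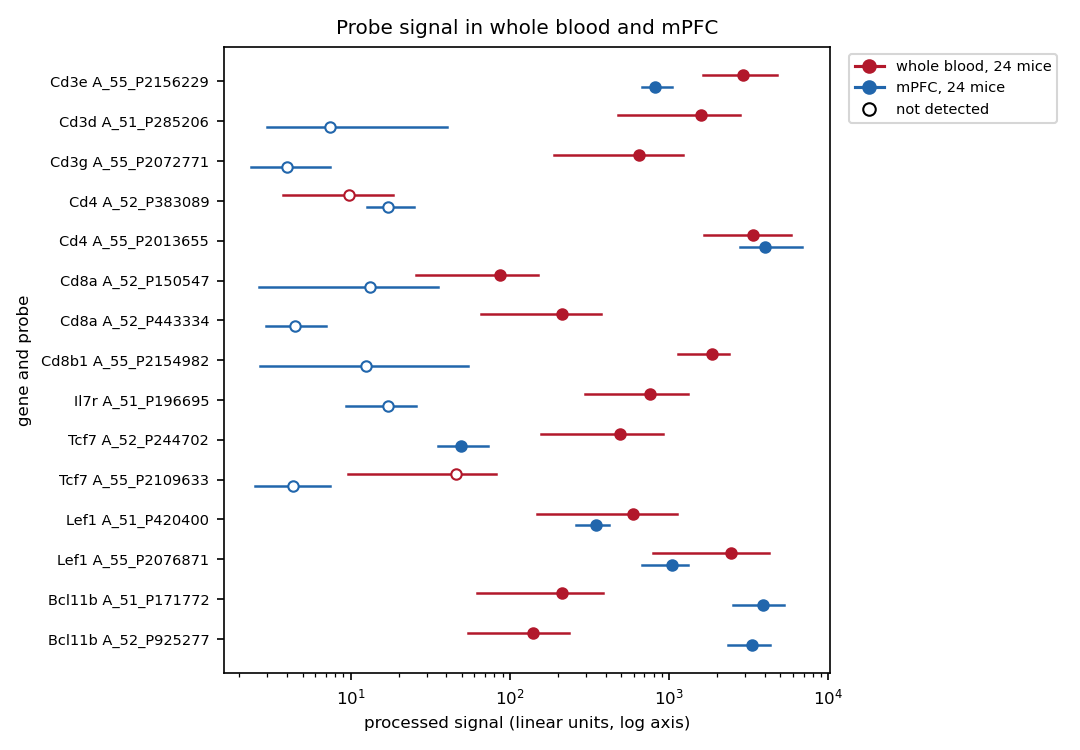
Processed signal (linear units on a log axis) of the 15 probes of the T cell genes in whole blood (red) and mPFC (blue). Points are means and lines run from the lowest to the highest of 24 mice; open points did not pass detection. Cd3e and Cd4 have 1 probe each with signal in mPFC, where Cd3d and Cd3g read 7.42 and 4.0 units.

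The CUMS effect, the mean difference of stressed from non-stressed mice over both surgeries, was tested first. In blood, 7 of the 10 genes fell with CUMS, by 22% to 27.7%: Cd3d, Cd3g, Cd8a, Il7r, Tcf7, Lef1 and Bcl11b. Because the study picked Bcl11b on these same arrays, its place among the 7 is a description. The other 3 genes, Cd3e, Cd4 and Cd8b1, did not pass the test. Of all 20767 detected probes, 48.5% were called for CUMS in either direction and 29.4% were called lower. The median difference of the 10 genes was -0.37, beside -0.03 over all probes. OVX+CUMS mouse 5 had the lowest signal of the 24 mice in every gene but Cd4, and without it 6 of the 10 genes were called, all but Bcl11b of the 7.

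Among the CD3 chains, Cd3d had log2 signals of 3.52, 3.89 and 4.13 (lowest, median and highest mouse) in control, 3.87, 3.95 and 4.06 in OVX, 3.12, 3.58 and 3.95 in CUMS and 2.97, 3.49 and 3.69 in OVX+CUMS mice. All 6 OVX mice lay above all 6 OVX+CUMS mice, whereas CUMS and control mice overlapped. OVX and OVX+CUMS mice shared only slide 3. The share of all probes separated in this way, here and in the comparisons below, was not counted. For Cd3d the CUMS effect was -0.40 (SE 0.09, limma adjusted p = 0.00247). Cd3g ran 2.08, 2.53 and 2.84 in control, 2.57, 2.66 and 2.91 in OVX, 1.78, 2.32 and 2.76 in CUMS and 1.66, 2.20 and 2.38 in OVX+CUMS mice, with the same separation after ovariectomy. Its CUMS effect was -0.36 (SE 0.10, limma adjusted p = 0.00865). Cd3e, the chain used most often to stain T cells, ran 4.65, 4.79 and 4.87 in control, 4.58, 4.64 and 4.69 in OVX, 4.54, 4.72 and 4.89 in CUMS and 4.03, 4.50 and 4.59 in OVX+CUMS mice. Its spread within unstressed groups was small, with SDs of 0.07 and 0.04, and its CUMS effect was -0.15 (95% interval -0.28 to -0.02, limma adjusted p = 0.058).

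Of the coreceptors, Cd8a ran 0.66, 0.93 and 1.39 in control, 0.86, 1.01 and 1.29 in OVX, 0.26, 0.76 and 1.05 in CUMS and 0.06, 0.60 and 0.73 in OVX+CUMS mice. The highest OVX+CUMS mouse lay below the lowest OVX mouse, and the CUMS effect was -0.37 (SE 0.10, limma adjusted p = 0.00811). The other Cd8a probe fell too, by 0.28 (limma adjusted p = 0.0254). Cd8b1, the partner chain of Cd8a on the same cells, had a CUMS effect of 0.04 (95% interval -0.27 to 0.35, limma adjusted p = 0.845), with CUMS mice spread from 3.72 to 5.10 around control mice at 4.15 to 4.56. Cd4 had a CUMS effect of 0.08 (95% interval -0.20 to 0.36, limma adjusted p = 0.627), with CUMS mice from 4.46 to 5.80. The 2 chains of CD8 therefore did not give 1 answer. The difference between them itself was not tested.

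Il7r, whose product passes on the survival signal of interleukin 7, ran 2.60, 2.89 and 3.32 in control, 2.55, 2.69 and 3.00 in OVX, 1.99, 2.57 and 2.82 in CUMS and 1.87, 2.40 and 2.61 in OVX+CUMS mice, and its CUMS effect was -0.40 (SE 0.11, limma adjusted p = 0.00585). Of the transcription factors, Lef1 ran 4.25, 4.67 and 4.87 in control, 4.42, 4.47 and 4.84 in OVX, 3.84, 4.30 and 4.54 in CUMS and 3.22, 3.99 and 4.34 in OVX+CUMS mice. All OVX+CUMS mice lay below all OVX mice. It had the lowest CUMS effect of the 10 genes, -0.47 (SE 0.11, limma adjusted p = 0.00312), and its other probe gave -0.33 (limma adjusted p = 0.0387). Tcf7 ran 1.59, 2.17 and 2.43 in control, 2.15, 2.30 and 2.44 in OVX, 1.35, 1.83 and 2.15 in CUMS and 1.28, 1.92 and 2.03 in OVX+CUMS mice, and its OVX+CUMS mice, too, all lay below its OVX mice. Its CUMS effect was -0.38 (SE 0.11, limma adjusted p = 0.0103).

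Bcl11b ran 0.65, 1.01 and 1.26 in control, 0.51, 1.10 and 1.40 in OVX, 0.18, 0.90 and 1.17 in CUMS and -0.44, 0.49 and 0.75 in OVX+CUMS mice. Its groups overlapped throughout, and 4 of 6 OVX+CUMS mice lay below the lowest control mouse. The CUMS effect was -0.38 (SE 0.14, limma adjusted p = 0.0323). It rested on single mice: without control mouse 1 or 6, CUMS mouse 2, OVX mouse 2 or 4, or OVX+CUMS mouse 5, each left out alone, the adjusted p was 0.0524 to 0.0638, with effects of -0.43 to -0.29 over all mice left out. The effect also missed the threshold with normexp background correction (-0.24, limma adjusted p = 0.058) and without the detection filter (limma adjusted p = 0.0782). The other Bcl11b probe, at another place in the gene, gave -0.22 (95% interval -0.50 to 0.07, limma adjusted p = 0.184).

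**Figure D2:**
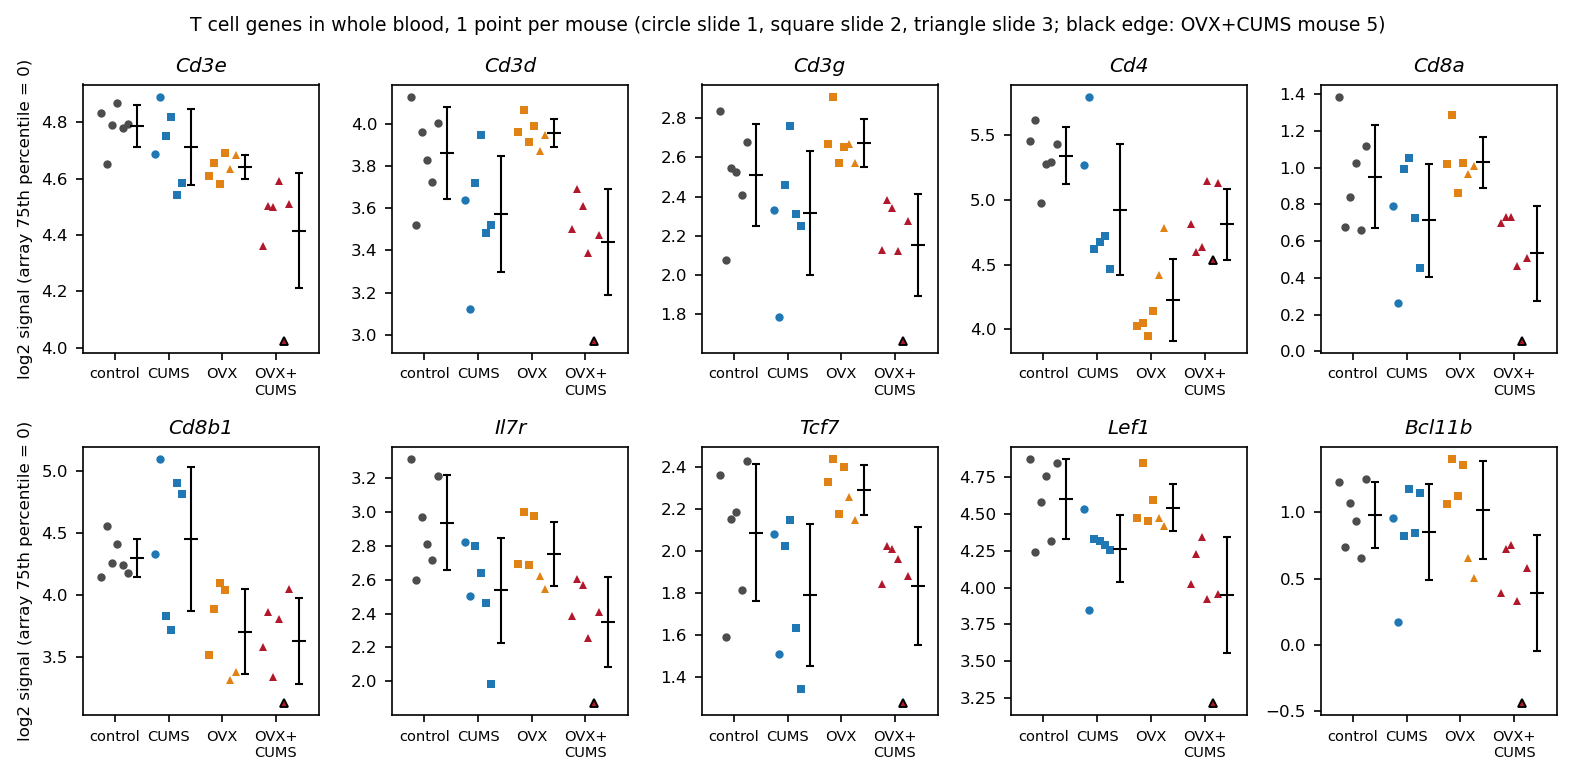
Log2 signal of each T cell gene in whole blood, 1 point per mouse, with group mean and SD (n = 6) at the right of each group; shapes give the slide. Cd3d, Cd3g, Cd8a, Tcf7 and Lef1 of all OVX+CUMS mice lie below all OVX mice, and OVX+CUMS mouse 5 (black edge) is the lowest Bcl11b value, at -0.44. OVX and OVX+CUMS mice shared only slide 3, and the share of all probes separated in this way was not counted.

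The OVX effect is the mean difference of ovariectomized from sham-operated mice. Cd4, Cd8b1 and Cd3e fell with OVX, that is 3 of 10 genes, by 14.2% to 38.7%, beside 55.1% of all probes called in either direction and 27.7% called lower. None of the 7 genes called for CUMS passed the test for OVX (limma adjusted p of 0.143 or more), but whether a gene's effects of CUMS and of OVX differ was not tested. The median OVX effect of the 10 genes was -0.19, beside 0.04 over all probes.

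Cd4 ran 4.98, 5.36 and 5.62 in control and 3.95, 4.10 and 4.79 in OVX mice, so that every OVX mouse lay below every control mouse. In OVX+CUMS mice it ran 4.53, 4.72 and 5.15. The OVX effect was -0.61 (SE 0.14, limma adjusted p = 0.0011). Cd8b1 ran 4.15, 4.25 and 4.56 in control, 3.32, 3.70 and 4.10 in OVX and 3.14, 3.70 and 4.05 in OVX+CUMS mice, and all 12 ovariectomized mice lay below the lowest control mouse. The OVX effect was -0.71 (SE 0.15, limma adjusted p = 0.000833), and that of Cd3e was -0.22 (SE 0.06, limma adjusted p = 0.00737). Cd8a, on the same cells as Cd8b1, had an OVX effect of -0.05 (95% interval -0.27 to 0.16, limma adjusted p = 0.68).

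**Figure D3:**
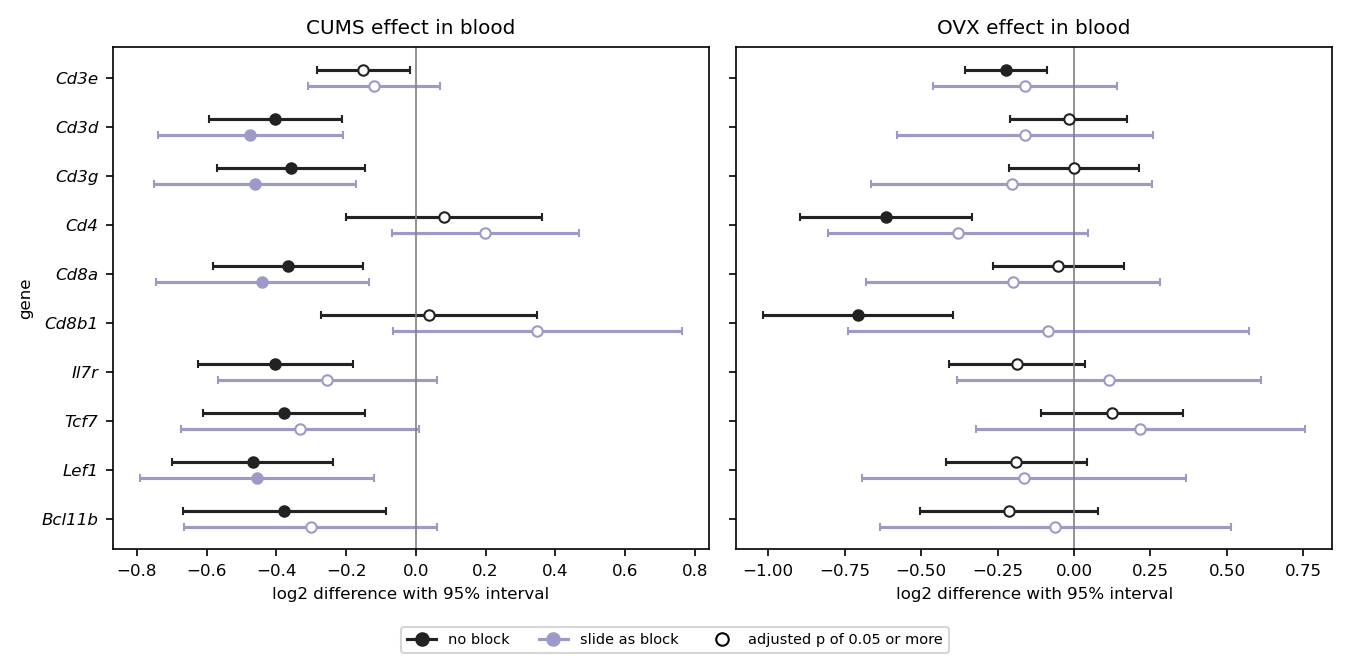
CUMS effect (left) and OVX effect (right) of the 10 T cell genes in blood, as log2 difference with 95% interval, without (black) and with (purple) slide as a block; filled points had an adjusted p under 0.05. The 7 genes that fell with CUMS lie between -0.47 and -0.36 without the block, and with the block no gene is filled for OVX.

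Slide was then added as a block. For CUMS, 4 of the 10 genes stayed below the threshold, Cd3d (-0.47, limma adjusted p = 0.0106), Cd3g (-0.46, 0.0151), Cd8a (-0.44, 0.0211) and Lef1 (-0.46, 0.0269), beside 49.7% of all probes called in either direction and 27.8% called lower. The other Bcl11b probe was at -0.02 with the block. It differed by 0.18 between 2 CUMS and 6 control mice on slide 1 and by -0.23 between 6 OVX+CUMS and 2 OVX mice on slide 3. On slide 2 it differed by -0.36 between CUMS and OVX mice, which differed in surgery as well as in stress. Tcf7 (-0.33), Bcl11b (-0.30) and Il7r (-0.25) had limma adjusted p-values of 0.0913, 0.146 and 0.155. On slide 1 alone, where 2 CUMS and 6 control mice lay, the 7 genes differed by -0.48 to -0.27. On slide 3 alone, between 6 OVX+CUMS and 2 OVX mice, they differed by -0.50 to -0.19. No gene passed the threshold on either slide (1 and 3 genes at an unadjusted p under 0.05), and neither did any of all 20767 probes. For OVX with the block, limma called 0 of 10 genes, none of them at an unadjusted p under 0.05, and 0 of all 20767 probes, of which 1317 had an unadjusted p under 0.05. OVX effects of Cd4, Cd8b1 and Cd3e were then -0.38 (95% interval -0.80 to 0.05), -0.08 (-0.74 to 0.57) and -0.16 (-0.46 to 0.14).

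Cd4 in blood differed between slides within a treatment, but neither difference passed the test. Within CUMS mice, Cd4 was 5.53 on slide 1 (n = 2) and 4.62 on slide 2 (n = 4), and within OVX mice it was 4.04 on slide 2 (n = 4) and 4.60 on slide 3 (n = 2), although mice of 1 group had the same treatment (limma adjusted p = 0.235 and 0.0601). Bcl11b of OVX mice was 1.24 on slide 2 and 0.58 on slide 3, a difference of -0.66 (limma adjusted p = 0.0418) in a comparison that called 1 of 10 genes and 6.03% of all probes. Slide 2 alone held CUMS and OVX mice, 4 of each. There Cd4 was 0.58 higher in CUMS mice (SE 0.12, limma adjusted p = 0.00759) and Tcf7 was 0.55 lower (log2 difference -0.55, SE 0.18, limma adjusted p = 0.0313), 2 of 10 genes beside 52.2% of all probes. Bcl11b differed by -0.24 (95% interval -0.56 to 0.08).

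Each group was compared with control mice next. CUMS mice differed from control mice in Il7r alone of the 10 genes (log2 difference -0.40, limma adjusted p = 0.0494), beside 29.7% of all probes. OVX mice were lower in Cd4 (-1.11, limma adjusted p = 0.000306), 53.8% lower, and in Cd8b1 (-0.59, limma adjusted p = 0.0415), 2 of 10 genes beside 27.1% of all probes. OVX+CUMS mice were lower in Lef1 (-0.66, limma adjusted p = 0.0117), Cd3e (-0.37, 0.0143) and Il7r (-0.59, 0.0197, without OVX+CUMS mouse 5 0.0544), 3 of 10 genes beside 6.26% of all probes called and 2.18% called lower. All 10 genes had a difference below 0 in that comparison, with a median of -0.48 beside -0.06 over all probes, and all 6 OVX+CUMS mice lay below the lowest control mouse in Cd3e and Cd8b1. The Cd8b1 difference turned under the slide block from -0.67 to 0.26 (95% interval -0.71 to 1.24). Bcl11b was -0.59 (SE 0.20, 33.5% lower, limma adjusted p = 0.0799), and its other probe was -0.28 (limma adjusted p = 0.452). With slide as a block, limma called 0 of 10 genes in each of these 3 comparisons, and also 0 of all 20767 probes. Of the 10 genes, 2, 0 and 1 had an unadjusted p under 0.05. The count for CUMS mice ran from 0 to 6 and that for OVX+CUMS mice from 0 to 3 over the other scalings tried, the outer values 6 and 0 with E1A spike-in scaling. Without CUMS mouse 2, who takes part in the shared estimate of spread, 7 genes were called for OVX+CUMS mice.

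The interaction asks whether CUMS acted differently after ovariectomy. Limma called 0 of 10 genes, beside 1.42% of all probes, and 1 gene, Cd4, had an unadjusted p under 0.05. For Cd4 the interaction was 1.00 (95% interval 0.44 to 1.56, limma adjusted p = 0.059) and with slide as a block 0.017 (-0.52 to 0.55), and for Bcl11b it was -0.50 (-1.08 to 0.08, limma adjusted p = 0.386).

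Whether Bcl11b followed T cell content was asked in ratios within each array, which a shift of the whole array does not change. Because the study picked Bcl11b on these same arrays, the p-values of these ratios, too, are a description and not independent evidence. The log2 ratio of Bcl11b over Cd3e was -3.81 ± 0.22 (SD, n = 6) in control, -3.86 ± 0.45 in CUMS, -3.62 ± 0.37 in OVX and -4.02 ± 0.28 in OVX+CUMS mice. No group differed from control mice by the exact two-sided permutation test, with differences of -0.05 (SE 0.20), 0.18 (SE 0.18) and -0.22 (SE 0.15) and p adjusted over 8 ratio comparisons of 0.848, 0.495 and 0.329. With Cd3d as the T cell gene, the differences were 0.16, -0.06 and -0.17, and with Cd3g they were 0.07, -0.12 and -0.23. In OVX+CUMS mice the ratio was below that of control mice with each chain, with exact permutation p of 0.0887 for Cd3d and 0.0303 for Cd3g before adjustment and 0.234 and 0.0808 after it. Control mice lay on slide 1 and OVX+CUMS mice on slide 3, so slide and group cannot be told apart here. Bcl11b over Cd3g of OVX mice was -1.61 to -1.29 on slide 2 and -2.07 to -2.01 on slide 3. That of OVX+CUMS mice was -2.10 to -1.59.

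Mouse by mouse, Bcl11b ran with some T cell genes more than with others. After each group's mean was subtracted, its correlation over the 24 blood arrays was 0.84 with Lef1, 0.81 with Cd3d, 0.80 with Cd3g, 0.70 with Cd8a, 0.66 with Tcf7 and 0.59 with Il7r. It was 0.33 with Cd3e, 0.11 with Cd8b1 and -0.46 with Cd4. Values of 1 mouse come from 1 array, so that array scaling and slide are shared, and these r are given as a description. OVX+CUMS mouse 5 weighed on them, and without it r was 0.73 with Cd3d, 0.76 with Lef1 and -0.16 with Cd3e. Lef1 ranked at place 14 of 20767 probes in likeness to Bcl11b. The other probe of Bcl11b itself, with r of 0.63, ranked at place 796. Without OVX+CUMS mouse 5 these places were 110 and 3320. Over all probes the median r with Bcl11b was -0.01, and 5% of probes had an r above 0.60.

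**Figure D4:**
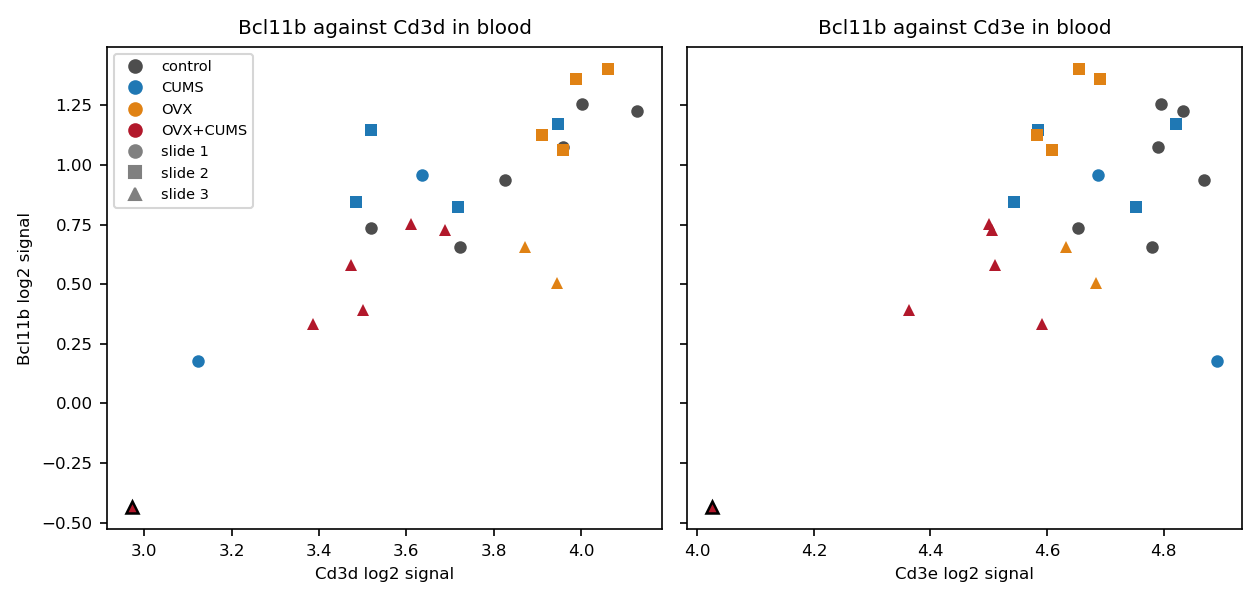
Bcl11b against Cd3d (left) and Cd3e (right) in blood, log2 signal of 1 point per mouse, colored by group with slide as the shape. Bcl11b rises with Cd3d (r = 0.81 after group means were subtracted) and spreads at like levels of Cd3e (r = 0.33), where OVX+CUMS mouse 5 (black edge) is the point at lower left.

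Within single groups, Bcl11b and Cd3e had a Pearson r of 0.50 in control, -0.52 in CUMS, -0.05 in OVX and 0.87 in OVX+CUMS mice (n = 6 each). No group passed the exact pairings permutation test, with p of 0.346, 0.319, 0.907 and 0.0833, adjusted over the 4 groups to 0.333 or more. Spearman rho was 0.54, -0.26, 0.09 and 0.20, adjusted p = 0.919 in each by the same exact test. Without the 2 mice farthest from the median of Cd3e, r was 0.65, -0.12, -0.33 and -0.95, so the value in OVX+CUMS mice rested on those mice.

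By the highest r, the 8 genes most like Bcl11b over the 24 mice were Als2cl (0.93), Slc12a7 (0.89), Dapl1 (0.88), Tbxa2r (0.87), Celsr1 (0.85), Lef1 (0.84), Ldb1 (0.84) and Cd247 (0.84), the zeta chain of the T cell receptor. Of these, 7 fell with CUMS at a limma adjusted p of 0.0476 or less, while Celsr1 had an effect of -0.26 (limma adjusted p = 0.0657). Of all probes, 48.5% were called for CUMS in either direction and 29.4% were called lower. The 8 genes were ranked on these same arrays, so the count is a description. Without OVX+CUMS mouse 5, r was 0.82 to 0.89 for the first 5 genes and 0.76 to 0.77 for Lef1, Ldb1 and Cd247, with Lef1 at place 110.

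Among all members, the 21 pairs among the 7 genes called for CUMS had r of 0.59 to 0.97, with a median of 0.84, and Cd3d and Cd3g, which lie head to head, gave the highest value. Cd3e had an r of 0.33 to 0.62 with each of these 7 genes, Cd4 of -0.46 to 0.036 and Cd8b1 of -0.37 to 0.11. The 3 pairs among Cd3e, Cd4 and Cd8b1 had r of 0.12 to 0.41. Without OVX+CUMS mouse 5, the median among the 7 genes was 0.76, and Cd3e ran from -0.16 to 0.44 with them. Array brightness moved with some of these genes: over the 24 mice, with group means subtracted, r with the 75th percentile of the array was 0.54 to 0.62 for Cd3d, Cd3g, Cd8a and Tcf7, 0.44 for Lef1, 0.35 for Il7r, 0.18 for Bcl11b, 0.01 for Cd3e, -0.21 for Cd4 and -0.82 for Cd8b1. The part of brightness in these values was not tested.

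**Figure D5:**
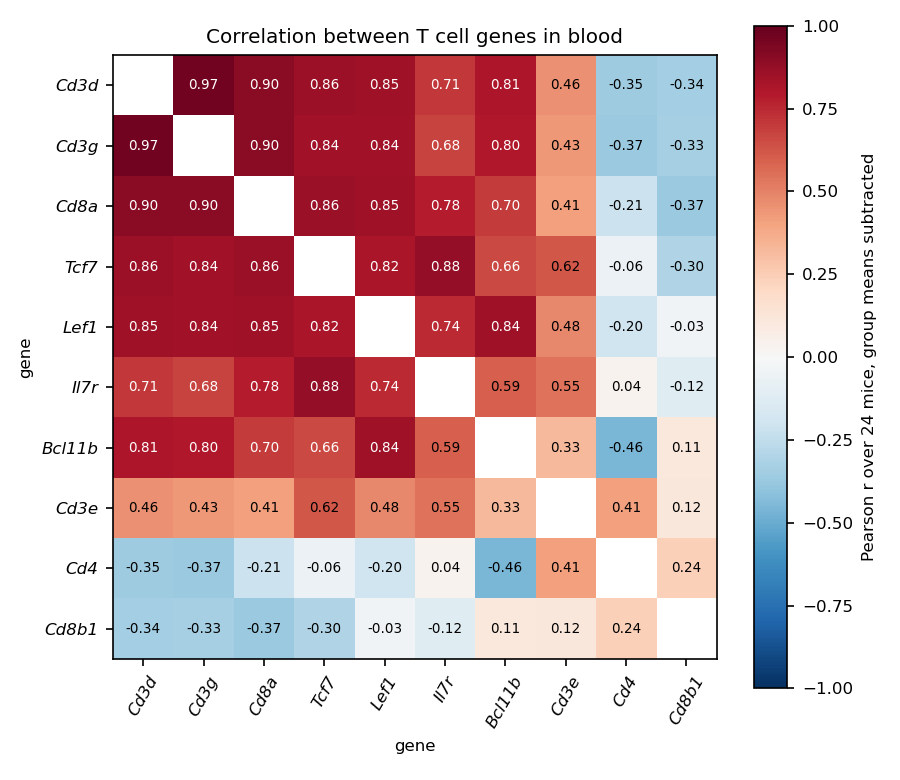
Pearson r between the 10 T cell genes over 24 blood arrays after each group's mean was subtracted; color and number give r. Cd3d, Cd3g, Cd8a, Tcf7, Lef1, Il7r and Bcl11b form a block of 0.59 to 0.97, and Cd4 and Cd8b1 lie outside it.

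The CD4 and CD8 genes were set against each other in the same way. The log2 ratio of Cd4 over Cd8a was 4.39 ± 0.33 (SD, n = 6) in control, 4.21 ± 0.72 in CUMS, 3.20 ± 0.36 in OVX and 4.28 ± 0.36 in OVX+CUMS mice. Control and OVX mice shared no slide. The Cd4 probe used here read 3376 units in blood and 4012 in mPFC, and the other Cd4 probe did not pass detection. Array brightness, with group means subtracted, had an r of 0.62 with Cd8a and -0.21 with Cd4. The part of brightness in the ratio was not tested. The ratio was lower in OVX than in control mice, by 1.19 (log2 difference -1.19, SE 0.20, exact permutation p = 0.0021645, the smallest that 6 against 6 mice allow, adjusted p = 0.0173). The ratio also differed between slides within a treatment, at 2.76 to 3.12 on slide 2 and 3.45 to 3.78 on slide 3 in OVX mice, and at 4.48 to 5.54 on slide 1 and 3.63 to 4.01 on slide 2 in CUMS mice. Under the slide block, OVX minus control was -0.39 for Cd4 and -0.18 for Cd8a, in place of -1.11 and 0.077. CUMS and OVX+CUMS mice did not pass the exact test (differences -0.18 and -0.12, adjusted p = 0.695 for both). With Cd8b1 for CD8, the OVX difference was -0.52 (exact permutation p adjusted to 0.229) and that of OVX+CUMS mice turned to 0.13. Within slide 2, the ratio was 0.82 higher in CUMS than in OVX mice (SE 0.13), with an exact permutation p of 0.0286, the smallest that 4 against 4 mice allow, and an adjusted p of 0.114.

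Other T cell genes were read from lists of known function. Except where marked, the genes named from these lists had the largest OVX+CUMS differences from control mice on these same arrays. Their p-values, here and in the next paragraph, are therefore a description and not independent evidence. Of 24 genes of T cell receptor signaling, 22 were detected in blood, and 13 fell and 0 rose with CUMS, with a median difference of -0.31. These and the counts of the lists that follow stand beside 48.5% of all probes called for CUMS and 29.4% called lower, and 27.7% called lower for OVX. Of all 20767 probes, 3963 were called higher for CUMS and 5696 for OVX. With slide as a block, 0 of all probes were called for OVX. Sh2d1a, an adaptor of T cells, fell by 0.53 (limma adjusted p = 0.00277), and the surface proteins Thy1 and Cd5 each fell by 0.31 (0.00653 and 0.00783). With slide as a block, 12 were lower and 1 was higher, Cd27 (0.74, limma adjusted p = 0.0289), named after its values were seen. Of 10 genes of naive and recirculating T cells, 9 fell, with a median of -0.43, and 8 with the block. Foxo1, a factor that keeps naive T cells quiescent, fell by 0.48 (limma adjusted p = 0.00277) and Dapl1 fell by 0.33 (0.0476). Igfbp4 was the 1 gene that did not pass (-0.23, limma adjusted p = 0.252). It was higher with OVX (0.64, limma adjusted p = 0.00407), as were 5 of the 10 genes, and 0 of the 10 with the block.

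Of 12 transcription factors of the T lineage, 11 were detected, and with CUMS 6 fell and 2 rose. Tbx21, which drives type 1 helper cells, fell by 0.40 (limma adjusted p = 0.00954). The genes that rose were Runx3, a factor of CD8 T cells, by 0.79 (limma adjusted p = 0.00101), and Zbtb7b, a factor of CD4 T cells, by 0.39, the latter named after its values were seen. After blocking on slide, 4 were lower and Zbtb7b alone was higher, while Runx3 (0.35) and Tbx21 (-0.37) did not pass (limma adjusted p = 0.0842 and 0.0734). Runx1 had a CUMS effect of -0.11 (0.436). Of 8 genes of CD8 and cytotoxic T cells, 6 fell, among them Gzmm, a granzyme, by 0.54 (limma adjusted p = 0.000816) and Cxcr3, a chemokine receptor, by 0.50 (0.00127), while Gzmk differed by 0.07 (0.702). With the block, 5 of the 8 were lower. Of 7 genes of helper and regulatory CD4 T cells, 4 were detected and Icos fell, by 0.24 (limma adjusted p = 0.0134, with the block 0.0788). Tnfrsf4 and Il2ra did not pass for CUMS, and with OVX they were lower by 0.56 and higher by 0.40 (log2 differences -0.56 and 0.40, limma adjusted p = 0.00655 and 0.00422).

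Markers of other blood cells moved with the same comparisons. Of 9 B cell genes, all detected, 7 fell with CUMS, Cd79b by 0.53 (limma adjusted p = 0.00202) and Blnk by 0.45 (0.0051), and 5 rose with OVX. Blocking on slide left 7 B cell genes lower for CUMS and 0 higher for OVX. The summed linear level of the list was 269 to 377 times the 75th percentile in control, 179 to 312 in CUMS, 412 to 487 in OVX and 177 to 406 in OVX+CUMS mice. Of 10 erythroid genes, 9 were detected (Klf1 was not), 6 rose with CUMS, among them the globin Hba-a1 (0.26, limma adjusted p = 0.0379), and 6 fell with OVX, with summed levels of 11051 to 18437, 13615 to 26062, 7697 to 12079 and 9790 to 13214 in the same order. Under the slide block, 7 were higher for CUMS and 0 of 9 were called for OVX, where the median of the list turned from -0.49 to 0.22. Of 6 NK cell genes, 5 were detected (Klre1 was not) and 3 fell with CUMS, Gzma by 0.32 (limma adjusted p = 0.0294), and none with the block, with sums of 36.1 to 51.1, 28.3 to 43.7, 37.8 to 59.6 and 27.7 to 47.3. Of 10 neutrophil genes, 8 were detected (Ngp and Mpo were not) and 1, Camp, rose with CUMS (0.85, limma adjusted p = 0.0239, named after its values were seen). The calprotectin genes S100a8 and S100a9 were at 0.05 and 0.08. The sums of the list were 426 to 662, 351 to 914, 323 to 970.0 and 356 to 3615, the last in OVX+CUMS mouse 5, the mouse with the lowest Bcl11b. Of 6 monocyte genes, 3 were detected (Cd14 and Fcgr1 were among those that were not) and none passed for CUMS, while Cx3cr1 was lower with the block (-0.68, limma adjusted p = 0.0416), with sums of 47.3 to 71.1, 26.6 to 62.4, 43.7 to 57.3 and 42.2 to 166. Of 7 platelet genes, all detected, none passed for CUMS, with sums of 320.2 to 1083, 799 to 1240, 483 to 942 and 522 to 800.3. Over the 24 mice, with group means subtracted, the erythroid sum had an r of -0.59 with Cd3d, 0.71 with Cd8b1 and -0.22 with Bcl11b. The part of these cells in the T cell results was not tested.

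In mPFC, 5 of the 10 genes were detected. With CUMS, limma called 0 of 5, beside 4.19% of 28358 probes, and 1 of the 5, Cd4, had an unadjusted p under 0.05. With OVX, 1 of 5 was called, Cd4 (-0.56, SE 0.09, limma adjusted p = 0.000121), beside 30.9% of all probes. Against control mice, Cd4 was lower in CUMS (-0.64, limma adjusted p = 0.0039), OVX (-0.90, 4.86e-05) and OVX+CUMS mice (-0.87, 3.89e-05), where 1, 3 and 1 of 5 genes were called beside 16.9%, 33.5% and 33.4% of all probes. OVX mice were higher in Bcl11b (0.42, limma adjusted p = 0.0193) and lower in Cd3e (-0.22, 0.0322). Bcl11b, here a gene of cortical neurons, ran 2.08, 2.53 and 2.83 in control, 2.62, 2.92 and 3.13 in OVX, 2.23, 2.64 and 2.75 in CUMS and 2.09, 2.56 and 2.78 in OVX+CUMS mice, so that groups overlapped. With slide as a block, no member was called in mPFC for OVX or CUMS, and neither was any of all 28358 probes.

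Cd4 in mPFC followed the slide. Its mean was 3.19 ± 0.13 (SD, n = 8) on slide 1, 2.31 ± 0.06 on slide 2 and 2.34 ± 0.10 on slide 3, and the lowest value on slide 1, 2.95, lay above the highest of the other slides, 2.48. CUMS mice were 3.11 on slide 1 (n = 2) and 2.31 on slide 2 (n = 4), a difference of -0.80 (limma adjusted p = 0.00496) within 1 group, where 3 of 5 genes were called beside 16.2% of all probes. The interaction of Cd4, 0.67 (SE 0.18, limma adjusted p = 0.0404), was the 1 member called of 5, beside 4.49% of all probes, and rests on the same values. The part of the slide in this was not tested beyond the block, with which the interaction was called for 0 of all 28358 probes.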

How the data were processed

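The authors scanned the arrays and took background-subtracted intensity values from Feature Extraction 10.7.3.1. They deposited a log2 table shifted by each array's 75th percentile, and 100% of its values lay within 0.001 of those computed here. Replicate spots were averaged without outlier marks. A probe was detected when positive and well above background on all 24 arrays of a tissue and above 50 on at least 2 (20767 of 55681 probes in blood, 28358 in mPFC), and each gene was read by its brightest detected probe. Differences were tested over all detected probes, two-sided, with limma 3.58.1 (R 4.3.3) and Benjamini-Hochberg adjustment at 0.05. The models were also run on simulated blood arrays with independent noise and no slide effect, which cannot check them where slide and group overlap. Ratios were compared by exact permutation. The genes, lists and tests were chosen with earlier results of these data known. Named genes were the 10 members, the 3 detected genes of each other T cell list with the largest OVX+CUMS difference from control, the 2 brightest of each other cell type, and the 8 most like Bcl11b. Cortical neuron genes were detected for 2 of 9 in blood and 9 of 9 in mPFC. Each mouse gave 1 array of either tissue under the same number. Equal numbers in different groups stood for different mice. The mean correlation of their deviations was -0.04 in blood and 0.06 in mPFC, beside 0.0095 and -0.012 for unequal numbers. Above 0.1 lay 10 of 36 pairs of equal and 71 of 180 of unequal number in blood. In mPFC these were 16 of 36 and 36 of 180. Alternatives were quantile, detected-probe and E1A spike-in scaling, normexp (offset 50), no filter, no moderation, the deposited table, slide or number as a block, other genes in ratios, and each mouse left out. The number of arrays limits the precision.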

Additional observations from a re-analysis of the deposited data

Results flagged for a closer look

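In 6 of 68 groups of 6 mice examined (48 in blood, 20 in mPFC), 1 mouse stood apart, its gap to the nearest mouse exceeding the critical value of Dixon's test at 0.05, which chance alone passes in about 5% of groups. All 6 were in blood. OVX+CUMS mouse 5 was the lowest of its group in Bcl11b (-0.44), Cd3g (1.66), Lef1 (3.22) and Tcf7 (1.28). CUMS mouse 2 was lowest in Bcl11b (0.18), and OVX mouse 2 was highest in Cd3g (2.91). The genes of 1 mouse come from 1 array and are not independent.

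The effect of CUMS on Cd4 in mPFC differed between sham-operated and ovariectomized mice, by a limma interaction of 0.67 without a block. With slide as a block the interaction was 0.14 (95% interval -0.11 to 0.39) and was not called, where 0 of all 28358 probes were called. For Cd4, all arrays of slide 1 lay above those of slides 2 and 3.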

How the results depend on the processing

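The counts of members called in blood were 3 for OVX, 7 for CUMS, 0 for the interaction, 1, 2 and 3 for CUMS, OVX and OVX+CUMS against control mice and 2 for CUMS against OVX within slide 2; in mPFC they were 1 for OVX and 0 for CUMS. With slide as a block they were 0 for OVX, 4 for CUMS and 0 for each group against control, and 0 for OVX in mPFC. Except for CUMS in blood, 0 of all detected probes were called in these comparisons with the block. Replicate number was also used as a block, although equal numbers in different groups are different mice. The member counts were then 0 for CUMS and 1 for OVX against control mice, and no other count moved by over 1.5 times. CUMS, OVX and OVX+CUMS against control and slide 2 gave 0, 1, 1 and 4 after quantile scaling, 0, 1, 2 and 4 with the percentile over detected probes, 6, 1, 0 and 1 with E1A spike-ins, 3, 1, 2 and 4 with normexp and 0, 1, 1 and 1 without the filter. Without moderation, CUMS and OVX against control gave 0 and 1. The interaction was 1 with E1A or normexp. In mPFC, OVX was 2 with E1A, and CUMS was 1 with E1A or normexp. E1A scaling moved the median CUMS effect of all probes to -0.29 and the OVX effect to 0.19, and higher calls for CUMS from 39.3% to 5.69% (CUMS against control from 38.1% to 2.01%, with a median of -0.50; within slide 2 from 46.7% to 35.3%; in mPFC from 62% to 3.41% for OVX and from 55.7% to 0.877% for CUMS).

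The ratio of Bcl11b over Cd3e turned sign with Cd3d (0.16 for CUMS, -0.059 for OVX, 0.074 within slide 2), with Cd3g (0.069, -0.12 and 0.016) and with normexp (0.21 for CUMS, 0.088 for OVX+CUMS). Cd4 over Cd8b1 gave -0.52 for OVX and 0.13 for OVX+CUMS. The correlation of Bcl11b was 0.81 with Cd3d and 0.80 with Cd3g, and its other genes, normexp and omitted mice were alternatives chosen after seeing the data. Single effects turned sign as follows: for OVX, Cd3d (0.053 quantile, 0.023 detected probes, 0.13 E1A, 0.13 normexp), Cd8a (0.10 E1A), Lef1 (0.055 normexp), Cd3g (-0.20 slide block) and Il7r (0.11 slide block); for CUMS, Cd4 (-0.18 E1A, -0.030 normexp) and Cd8b1 (-0.22 E1A, -0.10 normexp); and Cd8b1 of OVX+CUMS against control mice (from -0.67 to 0.26, slide block). The cause was not tested. The authors' table moved no count.

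Leaving out each mouse gave 0 to 4 for CUMS, 1 to 2 for OVX and 2 to 7 for OVX+CUMS against control (7 without CUMS replicate 2, 5 without CUMS replicate 4), 3 to 4 for the OVX and 6 to 8 for the CUMS effect, 0 to 1 for the interaction, 1 to 4 within slide 2 and 0 to 1 for CUMS in mPFC. The Bcl11b over Cd3e ratio for CUMS ran from -0.14 to 0.12, its correlation with Cd3e from -0.16 (without OVX+CUMS replicate 5) to 0.57, the OVX effects of Cd3d and Cd3g from -0.062 to 0.029 and -0.053 to 0.049, and the CUMS effects of Cd4 and Cd8b1 from -0.0064 to 0.14 and -0.027 to 0.11.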
